A study of Homo sapiens with 4 samples.

Results

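The broad EZH2 domains of HEK293 cells with an induced wild-type histone H3.1 are the subject here. They are the peaks of the H3.1-WT EZH2 list on the 22 autosomes that were chosen by their width, with a minimum of 5000 bases. Of 29018 autosomal peaks in that list, 520 met this minimum. Together these domains spanned 3838826 bases. Each domain was then read in the EZH2 list of cells with H3.1-K27M, by counting the bases that list covered and the number of its peaks that overlapped the domain.

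EZH2 is the enzyme of Polycomb repressive complex 2 (PRC2), which places methyl groups on lysine 27 of histone H3. Polycomb complexes keep silent the genes for transcription factors and signals that belong to other lineages or stages, and at many of these genes PRC2 and its mark form wide blocks around a recruitment site. H3 K27M replaces that lysine by methionine, is a driver mutation of childhood brain tumours of the midline, and is known to inhibit PRC2 and to lower the methylated mark across most of the genome.

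HEK293 is an established line from human embryonic kidney. In both groups the cells carried a lentiviral H3.1 construct, were selected with G418 and were induced with doxycycline. The construct encoded H3.1-WT in 1 group and H3.1-K27M in the other. The label that names the genotype assigned the mutant, since the titles of those libraries read H31. The labels describe an added histone and do not mention removal of the histone genes that the cells already have. EZH2 was mapped by CUT&RUN, which cuts and releases DNA next to an antibody-bound protein. Each genotype had 1 EZH2 library and 1 background library made with an HRP secondary antibody, so the study had 4 libraries. There is no replicate check of any difference between the genotypes, and no test was made. The deposited lists hold no read counts, and the depth of the libraries is unknown. How many peaks a list holds and how far each extends can move with depth, and the part of depth in the values given here was not tested.

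Nearly every domain was still marked in H3.1-K27M, but a single peak covered 80% or more of its width in fewer than 50% of cases. An H3.1-K27M peak overlapped 503 of the 520 domains, a share of 96.7% (95% Wilson interval 94.8% to 97.9%). A domain is called kept whole where 1 H3.1-K27M peak covered at least 80% of it, and 221 domains met this definition (42.5%, 38.3% to 46.8%). It is called shortened where 1 peak covered less than 80%, which held for 164 domains (31.5%, 27.7% to 35.7%). It is called broken where 2 or more peaks overlapped it, which held for 118 domains (22.7%, 19.3% to 26.5%). The remaining 17 domains had no H3.1-K27M base and are called lost (3.27%, 2.05% to 5.17%). These last shares rest on the peaks admitted: with H3.1-K27M peaks of a −log10 q of at least 2 alone, 9.62% were broken and 10.2% lost. With H3.1-K27M peaks less than 2000 bases apart joined, an alternative chosen after seeing the data, 5.77% were broken. The intervals cover counting error over domains only, and the names describe the 2 lists, not a measured change in bound EZH2. Among all autosomal H3.1-WT peaks, 12.9% met the definition of kept whole, 20.7% that of shortened, 1.08% that of broken and 65.3% that of lost. Their median width was 778 bases, and neighbouring H3.1-K27M peaks lay at least 1021 bases apart. Most of these peaks were therefore too narrow to be broken.

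The H3.1-K27M list covered 2767105 of the domains' bases, which is 72.1%. The median domain was covered over 75.5% of its width, with quartiles of 48.9% and 95.7%. At the upper extreme, 91 domains were covered at every base. At the lower extreme, 20 domains that still had an overlapping peak were covered over less than 20% of their width. Over all autosomal H3.1-WT peaks 33.2% of the bases were covered, and over the peaks narrower than 5000 bases 28.1%.

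**Figure D1:**
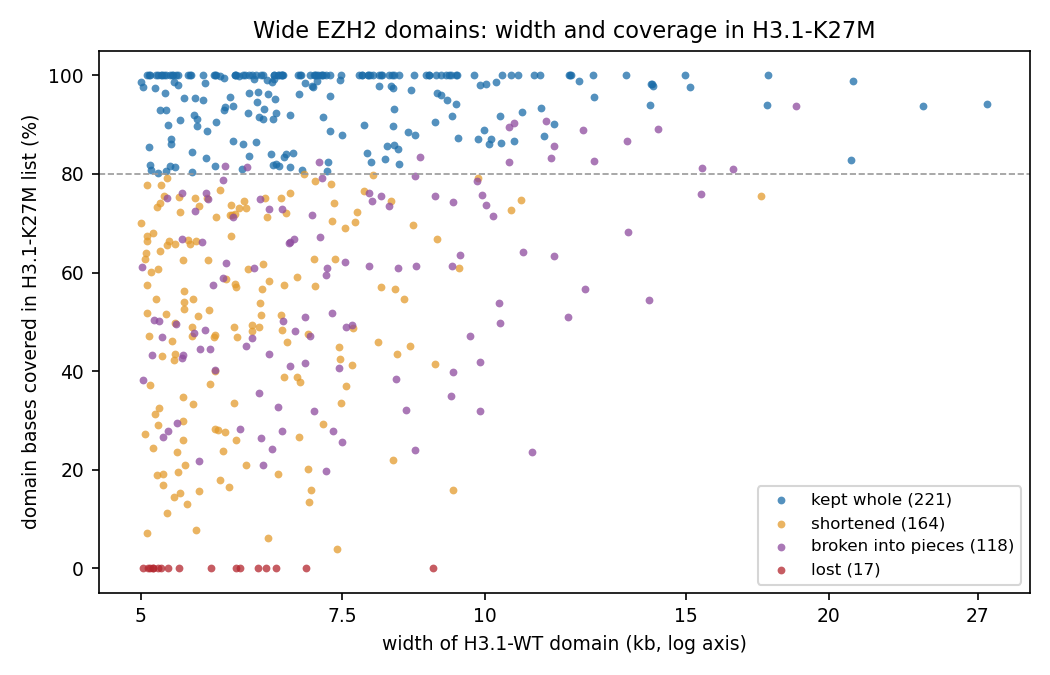
Each point is 1 of the 520 domains, with its width in the H3.1-WT list in kb (log axis) against the percentage of its bases covered in the H3.1-K27M list, coloured by class. The 17 lost domains lie along the bottom at widths up to 9015 bases, and the widest domain, of 27533 bases, is covered over 94.3%.

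Peaks on either side of the width minimum fell into several classes. The narrowest domains inside it were 5000 bases at 15q26.2 (70.1% covered, shortened), 5005 bases at 15q24.1 (98.7%, kept whole) and 5011 bases at 8q24.21 (61.2%, broken). Just outside it lay peaks of 4999 bases at 8q24.22 (43.9% covered), 4995 bases at 22q12.1 (9.85%) and 4985 bases at 1q41 (83.2%).

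Width and coverage went together. The domains' median −log10 q in the H3.1-WT list also rose with width, from 10.2 below 7500 bases to 23.1 above 15000. Of the 356 domains narrower than 7500 bases, 37.6% were kept whole and 64.9% of their bases were covered. The 101 domains from 7500 to 10000 bases had 51.5% kept whole and 76.3% of bases covered. Among the 51 domains from 10000 to 15000 bases 54.9% were kept whole and 85.2% of bases were covered. The 12 domains above 15000 bases had 7 kept whole and 89.7% of bases covered. The class of 1 short peak nearly vanished over this range, from 139 of 356 domains in the narrowest bin to 2 of 51 between 10000 and 15000 bases. The broken class took a larger share instead, 18.8% in the narrowest bin (15.1% to 23.2%) and 41.2% between 10000 and 15000 bases (28.8% to 54.8%). Lost domains numbered 16 in the narrowest bin and 1 between 7500 and 10000 bases. None of the 63 domains wider than 10000 bases was lost, which still allows a lost share of up to 7.005% for the 51 of at most 15000 bases and of up to 24.2% for the 12 wider ones (upper Wilson bounds). A wider peak offers more bases to be overlapped, so a fall of the lost share with width is partly built into the measure. It also offers more room for 2 peaks and the gap between them, so a rise of the broken share is partly built in too.

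Choosing wide peaks in 1 list favours that list, so the same reading was made from the other side. The H3.1-K27M list held 705 autosomal peaks of at least 5000 bases, more than the 520 in H3.1-WT. Read in the H3.1-WT list, 172 of these were covered whole by 1 peak (24.4%), 233 in part by 1 peak (33.0%), 220 by 2 or more peaks (31.2%) and 80 by none (11.3%). Over all autosomal H3.1-K27M peaks the corresponding shares were 17.6%, 16.5%, 1.21% and 64.7%. The H3.1-WT list covered 52.8% of the bases of the wide H3.1-K27M peaks, against 72.1% in the first direction. The share covered by 2 or more peaks was thus larger when the wide peaks were taken from H3.1-K27M than when they were taken from H3.1-WT. This share rose with width in both directions. From 5000 to 7500 bases the shares were near each other, 20.0% (16.5% to 24.1%) for H3.1-K27M and 18.8% (15.1% to 23.2%) for H3.1-WT. From 10000 to 15000 bases they were 55.0% (45.2% to 64.4%) and 41.2% (28.8% to 54.8%). Of the 705 wide H3.1-K27M peaks, 260 overlapped an H3.1-WT domain (36.9%) and 445 did not.

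**Figure D2:**
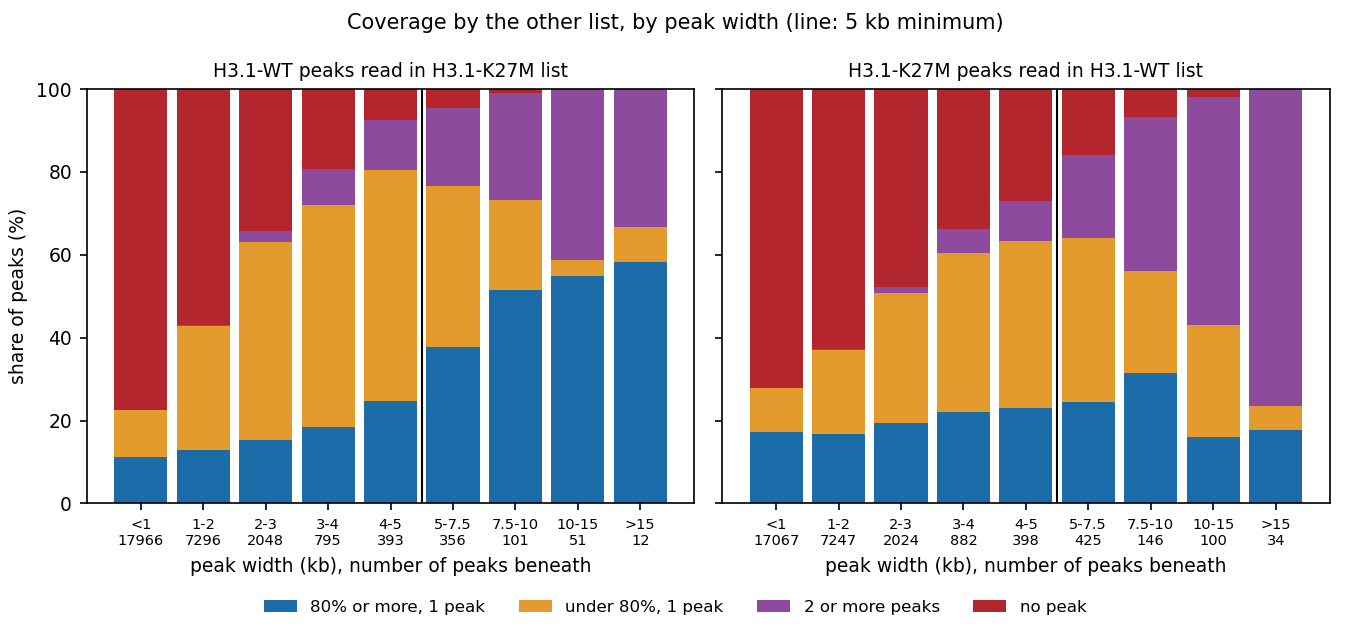
Stacked bars give the share of autosomal peaks (%) in each class by peak width in kb, with the number of peaks beneath each bar, for H3.1-WT peaks read in H3.1-K27M (left) and H3.1-K27M peaks read in H3.1-WT (right). To the right of the 5 kb line the blue share rises from 37.6% to 58.3% in the left panel, and the purple share (2 or more peaks) is larger in the right panel.

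The domains' strength in the H3.1-WT list belongs to the measurements that chose them and is given as a description. The median fold enrichment, the authors' ratio of EZH2 signal over background, was 7.08, and the median of the authors' −log10 q was 11.6. Coverage in H3.1-K27M was higher for stronger domains. It had a median of 50.1% for the 105 domains with a −log10 q from 2 to 5, of 58.0% for the 102 from 5 to 10, of 79.8% for the 168 from 10 to 20, and of 87.2% for the 136 at 20 or above. The 17 lost domains all lay below 10, 15 of them below 5. At like strength the domains were covered more fully than narrower peaks: the medians for narrower peaks were 0% from 2 to 5, 45.4% from 5 to 10, 69.5% from 10 to 20 and 82.1% at 20 or above. The gap between domains and narrower peaks was therefore smallest among the strongest peaks. Among the weak domains (−log10 q from 2 to 5), the 16 of at least 7500 bases had a median coverage of 97.0%, and the 89 narrower ones 43.5%. That bin holds few wide domains.

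**Figure D3:**
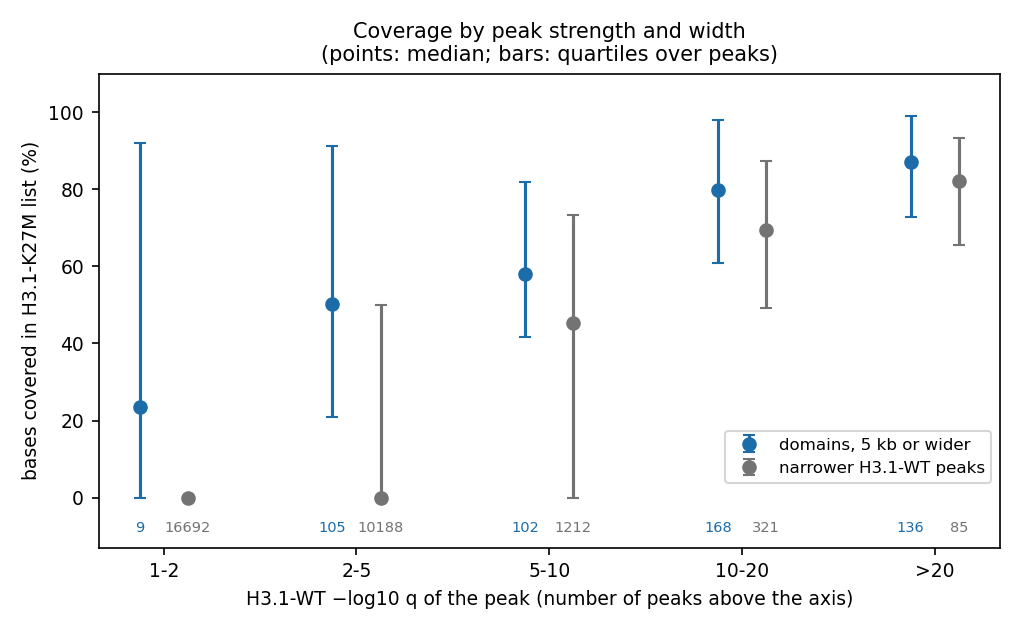
The percentage of bases covered in H3.1-K27M is plotted against the −log10 q of the H3.1-WT peak, for domains (blue) and narrower peaks (grey); points are medians, bars are quartiles over peaks, and the number of peaks stands above the axis. Blue medians rise from 23.6% to 87.2%, and the grey median reaches 82.1% in the last bin.

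The domains kept whole had a median width of 6896 bases. Their covering peak ran past at least 1 edge of the domain in 185 of 221 cases (83.7%), and in 146 (66.1%) it was wider than the domain. A median of 1499 bases lay past the edges where the peak ran over. Being kept whole thus often meant a wider peak in the H3.1-K27M list, not an equal one. The widest domain of all lay at chr18:44764442-44791974 in band 18q21.1. It spanned 27533 bases, with a fold enrichment of 9.51, and 1 H3.1-K27M peak of 26212 bases covered 25958 of them (94.3%). The second widest, of 24168 bases, lay at chr12:113898240-113922407 in band 12q24.13 and was covered over 93.8%. At 7p21.3 (chr7:8468198-8485873) a domain of 17676 bases was covered at every base by a peak of 19175 bases. A pair of wide domains in the pericentromeric bands of chromosome 2 were also kept whole. The domain at 2p11.1 (chr2:91657476-91678453, 20978 bases) was covered over 98.9%, and that at 2p11.2 (chr2:90437845-90458754, 20910 bases) over 82.8%. Read placement in such repeat-rich pericentromeric sequence can be uncertain.

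The shortened domains had a median width of 5976 bases and were covered over a median of 53.1%. The covering peak had a median width of 3345.5 bases. In 134 of the 164 (81.7%) bases were missing at both edges, and in 30 at 1 edge. The widest was at 1q41 (chr1:218329980-218347437). Of its 17458 bases a single H3.1-K27M peak of 13813 bases covered 75.4%, all toward its right end, and the first 4288 bases were uncovered. At 11p15.5 (chr11:2156803-2167557, 10755 bases) the peak covered the middle 8026 bases, or 74.6%. The domain at 6q27 (chr6:166070573-166080060, 9488 bases) kept 60.8%. Those at 16p12.1 (10537 bases, 72.6%) and 7p21.2 (9857 bases, 79.2%) were the other two of the 5 widest. A domain at 17q12 (chr17:32904714-32913200) had the fourth highest fold enrichment of all 520, 22.05, and was nevertheless shortened, with 4630 of its 8487 bases covered (54.6%). The other 4 of the 5 with the highest fold enrichment were kept whole. They were at 1q21.3 (fold 24.9, 94.3% covered), 10q25.1 (24.6, every base covered), 11q13.3 (22.7, 88.8%) and 18q23 (21.6, every base covered).

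The broken domains were wider than the shortened ones, with a median of 7185.5 bases, and were covered over a median of 60.9%. Exactly 2 peaks overlapped 104 of them, 3 peaks 13 and 4 peaks 1. The 133 gaps inside them ran from 1023 to 5421 bases with a median of 1518. No gap was shorter than 1000 bases, and within each whole list no neighbouring peaks were closer than 1021 bases in H3.1-K27M or 1045 in H3.1-WT. A narrower dip therefore could not appear as a break in either list. Of the uncovered bases of broken domains, 60.8% lay between pieces. In 17 broken domains at least 80% of the bases were still covered.

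The widest broken domain, at 19p13.3 (chr19:1746709-1765417), had 18709 bases. It was covered over 93.7% by 2 peaks with 1178 bases between them. At 2q31.3 (chr2:182537082-182553576, 16495 bases) peaks of 11841 and 1526 bases left a gap of 1154 bases, and 81.0% was covered. The 9q34.3 domain (chr9:139081706-139097159, 15454 bases) was met by 3 peaks, which shared 286, 3148 and 8310 bases with it across gaps of 1632 and 1335 bases. A 2p11.1 domain of 15484 bases was covered over 81.1%, and a 6q22.1 domain of 14186 bases over 89.2%. The domain in the most pieces was at 6q16.2 (chr6:100059013-100070826). Its 11814 bases held 4 peaks of 767, 1143, 1539 and 2577 bases, and 51.0% was covered. The next widest domains met by 3 peaks were at 13q31.1 (13352 bases, 68.2% covered), 18q23 (12229 bases, 56.7%) and 2q13 (10284 bases, 53.9%).

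The lost domains had the lowest median width and fold enrichment of the 4 classes. Their median width was 5398 bases, and their fold enrichment ran from 3.42 to 5.46 with a median of 3.89. The widest was a domain of 9015 bases at 2p25.1 (chr2:8817479-8826493) with a fold of 3.87 and a −log10 q of 2.60. It was followed by domains at 5q11.2 (6975 bases), 11q23.2 (6566), 6q14.1 (6436) and 9q22.33 (6330), with folds from 3.47 to 4.36. A pair of lost domains, named after their values were seen, stood above the rest in strength: 17q24.2 with a −log10 q of 6.58 and 13q34 with 6.25.

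**Figure D4:**
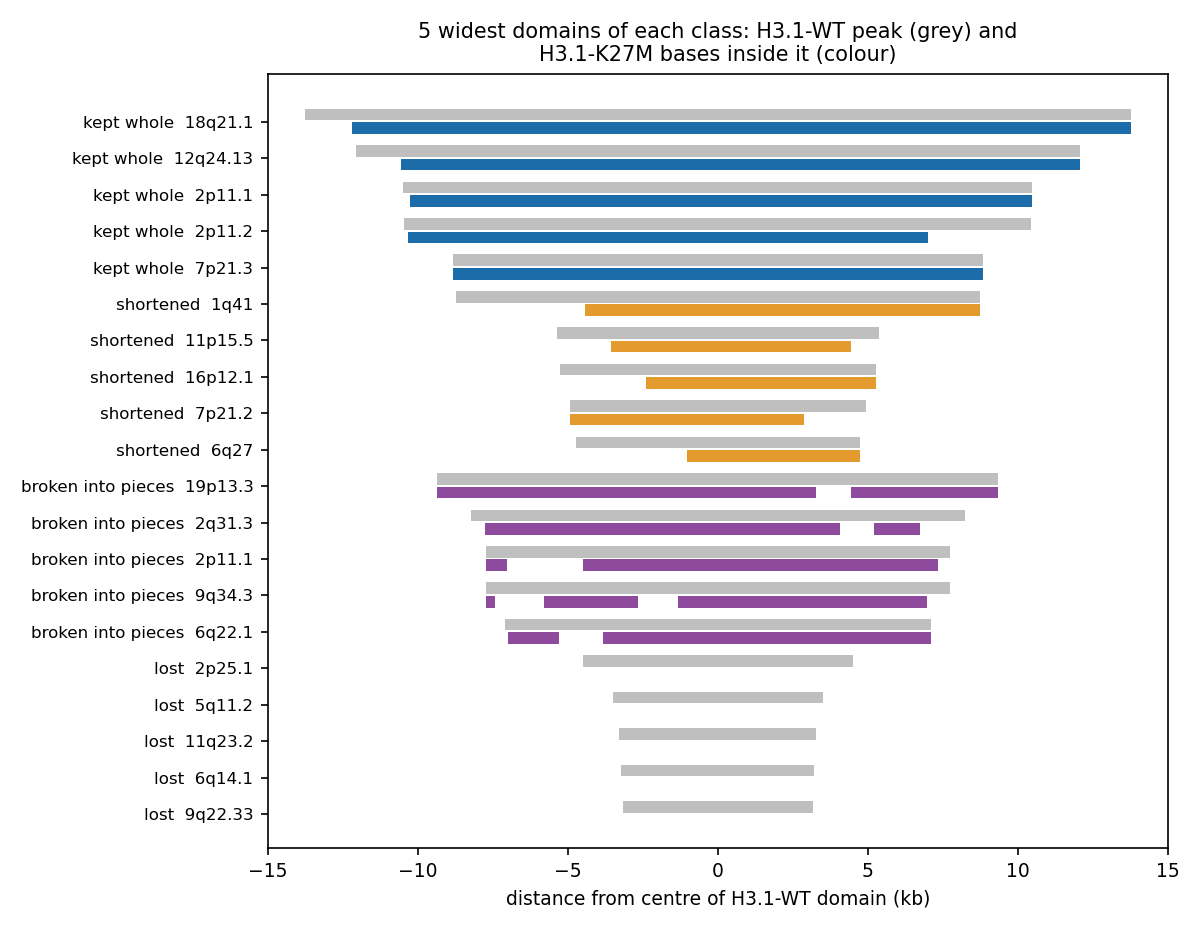
For the 5 widest domains of each class the grey bar is the H3.1-WT peak and the coloured bars are the stretches of it covered in H3.1-K27M, as distance in kb from the domain's centre. Single long bars run through the domains kept whole, the 1q41 domain lacks its left end, the 9q34.3 domain has 3 pieces, and the lost domains have no coloured bar.

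In the 503 overlapped domains 972002 bases were uncovered, of which 76.5% lay at the outer edges and 23.5% between pieces. When each domain was divided into 20 equal parts, the outermost parts were covered in H3.1-K27M over 44.3% on average and the middle parts over 82.6%. For shortened domains these values were 11.4% and 78.1%, and for broken domains 42.6% and 67.9%. A single peak can leave bases uncovered only at the ends, and 1 that covers 80% or more must include the middle, so part of this shape follows from the definitions. The wide H3.1-K27M peaks read in H3.1-WT had the same shape, with 31.98% at the outermost parts and 58.2% in the middle. The difference between middle and outermost parts was 38.2 percentage points in the H3.1-WT domains and 26.2 in the wide H3.1-K27M peaks.

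**Figure D5:**
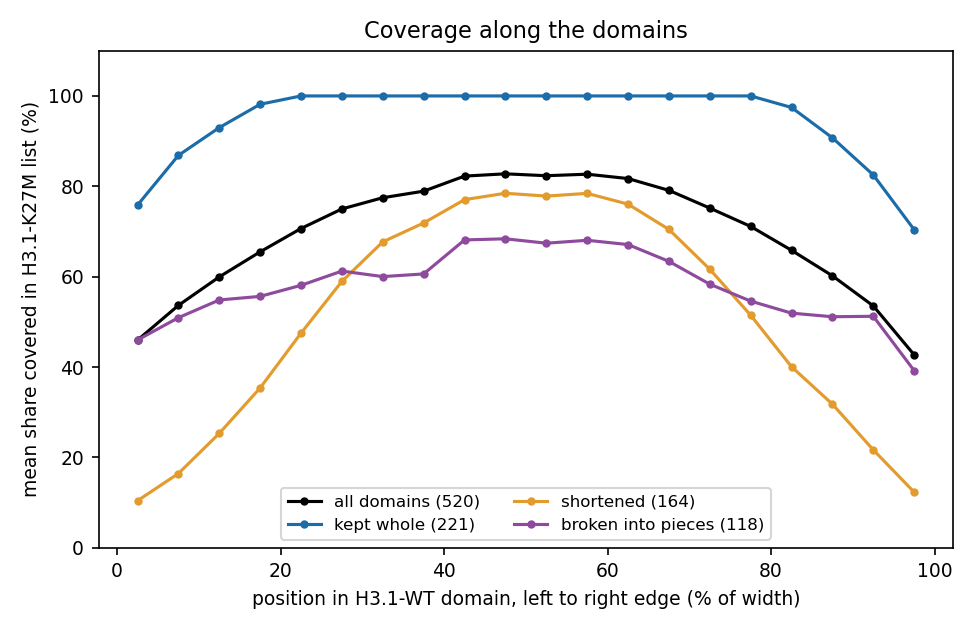
Mean percentage of bases covered in H3.1-K27M in each of 20 equal parts along the domain, from 1 edge to the other, for all 520 domains and for the classes kept whole, shortened and broken. The curve for all domains is lowest at the edges (mean 44.3%) and highest in the middle (82.6%).

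The peaks that lay in the domains also differed within the H3.1-K27M list. The highest fold enrichment in that list had a median of 5.74 in domains kept whole, 4.53 in shortened domains and 4.51 in broken ones. The H3.1-WT fold of the same classes had medians of 7.91, 7.08 and 5.95. The median quotient of the highest H3.1-K27M fold over the H3.1-WT fold was 0.737, 0.671 and 0.753. Choosing domains by width in the H3.1-WT list favours the fold of that list, and a quotient from the other side is not given here. Broken domains used the highest of 2 or more peaks, which favours their quotient over those of classes with 1 peak. Over all autosomal peaks, the median fold was 3.43 for the H3.1-WT list and 3.36 for the other list. Whether these quotients reflect a change in bound EZH2 was not tested. A peak of at least 5000 bases in H3.1-K27M overlapped 262 of the 503 domains (52.1%). Nearly all domains kept whole had such a peak, 208 of 221, which their definition favours.

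Domains were spread over all autosomes. Chromosome 6 held the most, 60, with 0.351 per Mb and a median coverage of 67.9%, followed by chromosomes 5 with 46 and 2 with 43. It also held the most wide H3.1-K27M peaks, 138. On chromosome 17, 5 of 21 domains were kept whole, 3 were lost and the median coverage was 54.6%. The 8 domains of chromosome 14 had a median of 95.4% and the 12 of chromosome 16 a median of 93.8%. The 30 domains within 2 Mb of a chromosome end comprised 13 broken and 8 kept whole. Of the 45 within 5 Mb of a centromere 22 were kept whole and none was lost, which allows a lost share of up to 7.87% (upper Wilson bound). The share of all H3.1-WT peaks on each chromosome and in these regions is not given here. The numbers of domains therefore cannot be told apart from the spread of the whole list.

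Giemsa bands divide the genome into light bands, which are gene-rich, and dark bands, which are gene-poor. In light bands lay 237 domains, of which 88 were kept whole (37.1%, 31.2% to 43.4%) and the median coverage was 67.5%. In the darkest bands lay 94 domains, of which 50 were kept whole (53.2%, 43.2% to 63.0%) and the median coverage was 89.1%. The H3.1-K27M list as a whole covered more of the darkest bands, 22.7 kb per Mb against 9.15 in light bands, while the H3.1-WT list covered 12.9 and 12.03 kb per Mb. A peak wider than the domain overlapped 42.6% of domains in the darkest bands and 23.6% in light bands. The part of that wider cover in the higher coverage of dark-band domains was not tested. Wide H3.1-K27M peaks read in H3.1-WT ran the other way, with a median coverage of 66.4% in light bands and 34.3% in the darkest.

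Some domains lay close together. Linking domains less than 100 kb apart gave 22 chains with 47 domains, and the longest chains had 3. Linked domains had a median coverage of 91.9% and 33 of 47 were kept whole, while the 473 single domains had a median of 74.4% and 188 kept whole. At 6q12 (chr6:63544013-63586477) 3 domains with 26667 bases in all were covered at every base. The same H3.1-K27M peak, of 26111 bases, covered the first and the second of them. These 3 domains had folds from 3.14 to 3.83 and a −log10 q from 1.59 to 2.52, and lay within 277145 bases of a centromere band. At 2q35 (chr2:219822975-219930375) 3 domains had 53.7% of their 19917 bases covered, 1 being kept whole, 1 shortened and 1 broken.

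Genes could be linked to the domains only through cytogenetic bands, because the gene coordinates used were those of another genome build. A band spans megabases, so a gene named here shares its band with a domain, and whether the domain covers it was not analysed here. The developmental set joined 19 lists, of developmental regulators and of the clustered protocadherin genes. Bands with at least 1 gene of these lists held 159 of the 520 domains (30.6%) and 26.1% of all autosomal H3.1-WT peaks. These bands had 0.226 domains per Mb, against 0.180 over all autosomal bands. The 159 domains comprised 56 kept whole, 55 shortened, 43 broken and 5 lost, with a median coverage of 69.1% against 75.5% over all domains. For comparison, bands of 18 housekeeping genes held 22 domains (4.23%, against 3.56% of all peaks), or 0.288 per Mb, a higher density than in the developmental bands. The housekeeping bands are not a separate set. Those at 5p15.33, 11p15.1, 6q27, 19p13.3 and 17p13.1 also hold a gene of the developmental lists, and their domains are counted in both. Of the 22 domains in housekeeping bands 8 were kept whole, 7 shortened and 7 broken.

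Among neuronal regulators, the bands of proneural and oligodendrocyte basic helix-loop-helix genes held 22 domains (4.23%, against 2.48% of all autosomal H3.1-WT peaks), 11 of them kept whole, with a median coverage of 81.5%. Over all domains 42.5% were kept whole and the median was 75.5%. The 2q31.3 domain of 16495 bases shares its band with NEUROD1, which drives neuronal differentiation. The bands of ONECUT and SKOR genes held 5 domains (0.962%, against 0.803% of peaks) with a median coverage of 94.3%. They include the widest of all, whose band also holds SKOR2, a corepressor of cerebellar Purkinje cells, and the broken 19p13.3 domain, whose band holds the homeobox gene ONECUT3. The bands of LIM homeobox genes, regulators of neuron identity, held 12 domains (2.31%, against 2.03% of peaks), of which 3 were kept whole, 6 shortened and 3 broken. Among these are the 12q24.13 domain in the band of LHX5 and the 9q34.3 domain in the band of LHX3. A 17q12 domain of 13970 bases, whose band holds LHX1, NEUROD2 and PCGF2, was covered over 98.2%. It is counted under the basic helix-loop-helix list as well. POU and PHOX2 genes act in sensory and autonomic neurons, and their bands held 11 domains (2.12%, against 1.82% of peaks), 5 of them kept whole. A domain of 17658 bases at 4q31.22 (chr4:147551598-147569255), the band of POU4F2, was covered over 94.0%, and the 13q31.1 domain in the band of POU4F1 lay in 3 pieces.

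The 10 domains in bands of NKX homeobox genes (1.92% of domains, against 1.09% of peaks) comprised 1 kept whole, 4 shortened and 5 broken. The widest of them, 11490 bases at 10q26.3 (chr10:131760977-131772466) in the band of NKX6-2, an oligodendrocyte and motor neuron factor, was covered over 63.4%. That band also held 2 shortened domains. All 4 domains in the Iroquois bands (0.769%, against 0.551% of peaks) lay at 5p15.33, the band of IRX1, IRX2 and IRX4. Of these 3 were broken and 1 shortened, and their coverage was 49.3%, 50.1%, 32.6% and 65.9%. The bands of the HOX clusters, which set position along the body axis, held 1 domain (0.192%, against 0.700% of peaks). It was 9897 bases wide at 2q31.1 (chr2:176941812-176951708), in the band of the HOXD genes and of DLX1 and DLX2, and 2 peaks covered 31.9% of it. The bands of SOX genes held 20 domains (3.85%, near the 3.73% of all peaks), 5 kept whole, 11 shortened, 3 broken and 1 lost. In the band of SOX21 a domain of 8687 bases at 13q32.1 was covered over 23.99%, and in the band of the heart and limb factor TBX18 a domain of 10992 bases at 6q14.3 over 23.5%. The lost 13q34 domain shares its band with SOX1, a neural progenitor factor, and the lost 9q22.33 domain shares its with FOXE1, a thyroid factor.

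The bands of morphogen genes held 25 domains (4.81%, against 3.78% of peaks). Of these 8 were kept whole, 12 shortened and 5 broken, beside 42.5%, 31.5% and 22.7% over all domains. At 10q22.1 (chr10:71327371-71339803), the band of NODAL and of the endocrine progenitor gene NEUROG3, a domain of 12433 bases was covered at every base. At 5p12 (chr5:44382877-44392776), the band of FGF10, a limb and lung bud signal, 98.0% of 9900 bases was covered. The 11q13.3 domain with a fold of 22.7 lies in the band of FGF3, FGF4 and FGF19. At 7q36.3 (chr7:157478476-157487839), the band of SHH and EN2, 9364 bases were covered over 61.2% by 3 peaks. The other domains of that band were covered over 82.5% (chr7:155166064-155174015) and 56.2% (chr7:155601142-155606596), each by 1 peak. The bands of calcium channel and synaptic genes held 15 domains (2.88%, against 2.52% of peaks), 8 kept whole and 5 broken. A domain of 11861 bases at 20q11.23 (chr20:37349384-37361244), the band of the vesicular GABA transporter SLC32A1, was covered at every base. These lists share bands, so a domain can be counted under more than 1 list, and the small numbers in each do not order the lists.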

How the data were processed

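EZH2 CUT&RUN peaks came from 2 broad-peak lists deposited by the authors. Each list names 1 EZH2 and 1 HRP library of the same genotype, so nothing was pooled. Per the submitters' processing notes the build was hg19 and the tools were MACS2, Bowtie2 2.3.5.1, deepTools, Picard and cutadapt; their parameters are not given in the sources used here. For every peak the authors deposited a linear ratio (fold enrichment over background) and a −log10 q value, which were used only to describe, rank or filter peaks. The H3.1-WT list reached down to a −log10 q of 1.01, the H3.1-K27M list to 1.00. The lists do not say how EZH2 and HRP libraries were scaled. A caller compares read numbers, so peak number and width depend on depth, which is unknown.

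Covered bases and overlapping peaks (at least 1 shared base) were computed for each domain. The classes were tested on 4000 simulated domains of fixed layouts, none close to the 80% limit, with 0 wrong. Covered bases and numbers of overlapping peaks were checked against bedtools 2.31.1 over 29018 peaks, with 0 differences. Shares have 95% Wilson intervals, treating domains as independent. Positions are 1-based in hg19, and 0 peaks ended past an hg19 chromosome end. Bands came from circlize 0.4.16, by domain midpoint. Of 383 listed genes in 22 lists, 375 matched an autosomal gene of RefSeq on GRCh38.p14 and were placed in bands of that build. Gene starts inside domains, GC content and repeats needed an hg19 annotation and were not analysed here, and no sequences were read. Named domains were, per class, the 5 widest; the 5 with the most H3.1-K27M peaks; the 5 with the highest fold; the 3 nearest each side of the minimum; and up to 3 per gene list by width, by band in place of gene start. The domains, lists and classes were chosen with earlier results of these data known. Alternatives changed the width minimum, q minima, joining distance, shared bases, the 80% limit and the regions used. Analysis used Python 3.11.15, pandas 2.3.3 and R 4.3.3.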

Additional observations from a re-analysis of the deposited data

How the results depend on the processing

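No paired analysis was possible because EZH2 was mapped in 1 library per genotype. Of 55 values under alternatives, 10 could not change by construction (such as the lost share under another limit for kept whole). Of the other 45, 18 stayed within the 95% interval of the reported value. For the percentage of bases covered, the interval used (68.1% to 75.8%) treats it as a share of domains. That percentage is a ratio of bases, so for it the interval is only a rough mark and the count of 18 is approximate. The cause of the other changes was not tested unless the construction shows it. With a width minimum of 3000 bases, 27.2% of domains were kept whole, 47.4% shortened, 13.7% broken and 11.7% lost, and 59.3% of bases were covered. With 10000 bases these were 55.6%, 4.76%, 39.7%, 0% and 86.4%, and 61.6% of wide H3.1-K27M peak bases were covered in H3.1-WT. With H3.1-K27M peaks of a −log10 q of at least 2, 37.7% were shortened, 9.62% broken and 10.2% lost. The reverse reading with H3.1-WT peaks limited in that way covered 44.8%. Domains with a −log10 q of at least 5 had 0.493% lost and 76.3% of bases covered. Counting a domain as kept whole from 50% covered gave 59.6% kept whole and 14.4% shortened, and from 90% it gave 32.3% and 41.7%. Joining peaks within 1000 bases changed nothing, as no neighbours were closer. In alternatives chosen after seeing the data, joining within 2000 bases gave 53.3% kept whole, 37.7% shortened, 5.77% broken and 76.4% of bases covered. The higher-q part of the H3.1-K27M list, its upper 50%, gave 36.2% shortened and 16.3% broken. The shortened share thus ranged from 4.76% to 47.4% and the broken share from 5.77% to 39.7%, and with 1 library per genotype no replicate limits it. Unknown depth limits peak edges, gaps and weak domains alike.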

Other observations

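The X chromosome lies outside the rule that chose the domains. Its H3.1-WT list held 24 peaks of at least 5000 bases, of which 12 were kept whole, 3 shortened, 8 broken and 1 lost in H3.1-K27M, with a median coverage of 85.4% and 75.04% of bases covered. The reverse reading differed more from this than on the autosomes. The H3.1-K27M list held 146 such X peaks, of which 9 were covered whole by 1 H3.1-WT peak, 51 in part by 1 peak, 41 by 2 or more peaks and 45 by none. Their median coverage was 21.3%, and 31.3% of their bases were covered. The widest X domain in H3.1-WT, 12020 bases at Xq21.31, was covered over 84.1% by 2 peaks. Those at Xp22.11 (11845 bases) and Xp22.33 (11841 bases) were covered over 39.2% and 87.4%, each by 1 peak.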
